A study of Salmo salar with 12 samples.

Results

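Consensus peaks of open chromatin in the liver of female Atlantic salmon numbered 94780. Of these, 1391 (1.47%) were less open in every library taken after T1 than in every T1 library. A minimum fall was also required, which left 1219 peaks (1.29%). These peaks were selected on their measured accessibility. The deposited log2(CPM + 1) value (CPM, counts scaled to the same total over all peaks in each library) of all 9 libraries from T2, T3 and T4 had to lie below all 3 T1 values. The mean over the 6 libraries of T3 and T4 also had to lie at least 0.5 below the T1 mean. The fall after T1 is therefore a description of how the peaks were chosen, and no test of it is given as evidence. The mirror choice, with every later library higher and the same minimum difference, gave 686 peaks (0.724%).

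Long days were given to female brood stock in order to bring them into sexual maturation. The 3 later groups T2, T3 and T4 were sampled at successive times after the regime began and T1 just before it, with 3 biological replicates at each time point and no other treatment or genotype. All fish came from a single management group, so the light regime, the age of the fish and the season cannot be told apart. The libraries were made from nuclei of whole frozen liver, so fewer cells of a type and less open chromatin per cell cannot be told apart either.

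ATAC-seq cuts DNA with the transposase Tn5, which reaches DNA mainly where nucleosomes are absent, so a peak with fewer reads is read as a region whose chromatin is more closed. Open regions in liver include promoters and enhancers at which transcription factors bind. In maturing female fish the liver is the source of vitellogenin and egg envelope proteins, which it makes in response to oestrogen from the ovary and exports to the growing oocytes. The tables analysed here name peaks by number and give neither positions nor genes. The genes near these peaks, their sequences and the marker loci of liver cells were thus not analysed here.

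The depth in peaks differed widely between libraries and within time points. The counts in peaks ranged from 4199681 (T4 replicate 2) to 31312069 (T1 replicate 3), and the share of uniquely mapped reads that fell in peaks ranged from 7.05% to 48.4% in the same libraries. The 4 lowest shares were those of T4 replicate 2 (7.05%), T3 replicate 3 (15.3%), T1 replicate 1 (16.7%) and T4 replicate 1 (21.9%). In these libraries the log2 values of all peaks were also the most compressed, with an SD over peaks of 1.03 to 1.28, against 1.38 to 1.48 in the other 8. Every time point except T2 held at least 1 of them, and no pair of replicates agreed within sampling noise.

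The 1219 peaks were about as far below T1 at T2 as at T3. The minimum fall was set on T3 and T4 and not on T2, so the place of T2 beside them depends in part on the choice. Their median difference from the T1 mean on the log2(CPM + 1) scale was -0.81, -0.67 and -0.58 in replicates 1, 2 and 3 of T2. It was -0.58, -0.81 and -0.60 in those of T3, and -1.19, -0.97 and -0.59 in those of T4. The T1 libraries themselves lay at 0.06, -0.06 and -0.02. Averaged over libraries, these medians gave -0.69 ± 0.11 for T2, -0.66 ± 0.13 for T3 and -0.92 ± 0.31 for T4 (SD over 3 libraries). The lower mean at T4 came from replicates 1 and 2, while replicate 3 lay with the T2 and T3 libraries. Replicates 1 and 2 of T4 were among the 4 libraries with the lowest share of reads in peaks, and the part of this in their lower values was not tested.

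**Figure D1:**
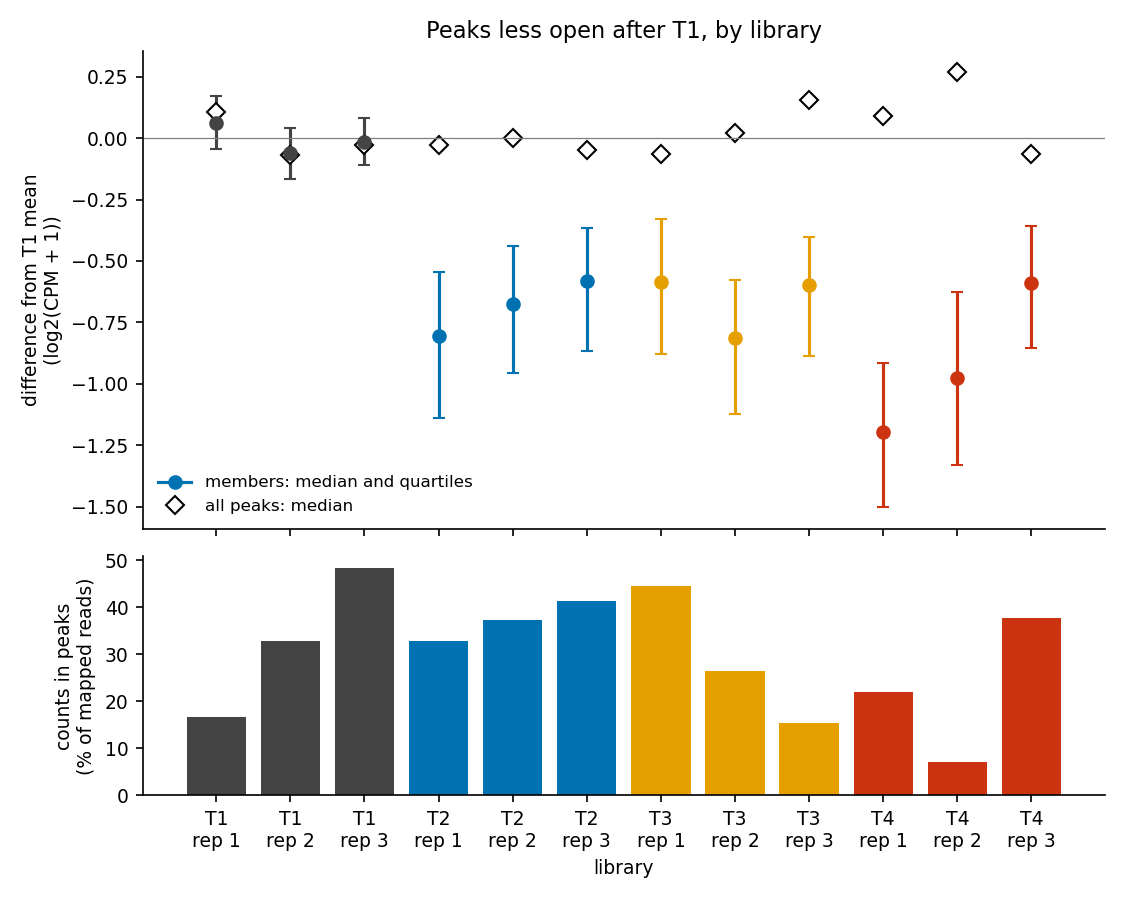
Upper panel, difference from the T1 mean in log2(CPM + 1) for the 1219 peaks less open after T1, as the median (circle) and quartiles (bars) in each of 12 libraries, with the median of all 94780 peaks as open diamonds. Lower panel, share of uniquely mapped reads counted in peaks, in percent. The peaks were chosen to lie lower after T1; T4 replicates 1 and 2 lie lowest, at -1.19 and -0.97, while T4 replicate 3 lies at -0.59.

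In the linear unit, the 1219 peaks held 2.34% ± 0.098 of all counts in peaks for T1, 1.46% ± 0.12 for T2, 1.45% ± 0.15 for T3 and 1.16% ± 0.35 for T4 (SD over 3 libraries). The median peak had 15.0, 13.4 and 14.2 CPM in the T1 libraries, 7.13, 7.99 and 8.74 CPM at T2, 8.71, 7.40 and 8.43 CPM at T3, and 5.53, 6.67 and 8.57 CPM at T4. Most of these peaks thus kept part of their T1 signal in bulk liver. The mean CPM of the 9 later libraries was a median of 55.9% of the T1 mean, with quartiles of 47.6% and 63.2%. It was below 50% of the T1 mean in 387 peaks, below 25% in 14 and below 10% in 1.

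The margins by which the peaks were included were small. The mean of T3 and T4 lay a median of 0.80 below the T1 mean (quartiles 0.67 and 0.96, largest 2.50), and the gap between the lowest T1 value and the highest later value had a median of 0.12. Within 0.1 of the threshold of 0.5 lay 169 chosen peaks just above it and 121 peaks just below it that also kept the order of libraries. Just inside, peak19113 had 8.58, 7.35 and 8.69 CPM at T2, 5.18, 9.39 and 9.63 CPM at T3 and 7.35, 7.86 and 9.33 CPM at T4, against 11.9, 11.5 and 11.7 CPM at T1. Just outside, peak90889 had 7.18, 5.13 and 6.94 CPM at T2, 7.11, 5.80 and 6.29 CPM at T3 and 3.80, 5.24 and 6.22 CPM at T4, against 9.41, 7.54 and 8.37 CPM at T1. These 2 peaks differ little in how far they fell, so the threshold divides a continuous range.

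No single later library set the upper limit. The highest of the 9 later values came from T3 replicate 1 in 247 peaks, T2 replicate 3 in 218, T4 replicate 3 in 217 and T3 replicate 3 in 199, and from the other 5 libraries in 21 to 116 peaks each. The lowest later value was more concentrated, in T4 replicate 1 (516 peaks) and T4 replicate 2 (298 peaks). On the T1 side, replicate 2 was the lowest library in 586 peaks, replicate 3 in 393 and replicate 1 in 240.

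The chosen peaks were more open at T1 than peaks in general and varied less between T1 libraries. Their T1 mean had a median of 14.0 CPM, against 5.002 CPM over all peaks, and their SD over the T1 libraries a median of 0.16 log2 units, against 0.27. The share of peaks chosen was 0.0651% of the 18446 peaks under 2 CPM at T1, 0.508% between 2 and 5 CPM, 1.45% between 5 and 10 CPM, 2.50% between 10 and 20 CPM, 3.09% between 20 and 50 CPM and 2.59% of the 2702 peaks at 50 CPM or more. The peaks that were more open after T1 ran the other way. From the lowest class up, they numbered 238, 265, 127, 50, 6 and 0. These classes held 18446, 28931, 18389, 15069, 11243 and 2702 peaks. The choice uses the T1 values in both its order and its threshold, so these differences in level and spread are given as a description, without a test.

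Of the 5 peaks that fell furthest over the 9 later libraries, peak87193 was low in each of them. It had 9.41, 7.92 and 8.65 CPM at T1, 1.14, 1.58 and 0.83 CPM at T2, 1.01, 0.61 and 1.34 CPM at T3, and 0.86, 2.62 and 1.32 CPM at T4. The lowest T1 library was thus well above the highest later library, T4 replicate 2. The fitted log2 fold change of the later mean over T1 was -2.90 ± 0.29 (SE, edgeR), a value that describes the choice.

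In peak72977 the depth of the fall differed between time points. It had 22.8, 13.8 and 17.0 CPM at T1, 10.9, 8.87 and 11.3 CPM at T2, 2.19, 2.75 and 2.41 CPM at T3, and 5.62, 5.95 and 4.26 CPM at T4. The 4 time points did not overlap, with T3 lowest. The log2 fold change of T4 over T3 was 1.01 ± 0.41 (SE, edgeR), given without a test because this peak was named for its low T3 values.

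As in peak87193, the level was low in every later library in peak75921 and, with fewer counts, in peak64033. In peak75921, 17.5, 10.8 and 8.91 CPM at T1 were followed by 3.48, 3.44 and 1.71 CPM at T2, 4.42, 4.04 and 2.14 CPM at T3, and 1.99, 2.86 and 2.47 CPM at T4. In peak64033, T1 libraries had 3.90, 2.90 and 3.51 CPM. The 9 later libraries lay between 0.15 and 1.05 CPM with a median of 0.70 CPM. Its later counts were low, at 16, 18 and 19 at T2, 17, 2 and 4 at T3, and 3, 3 and 9 at T4. Whether its level was steady after T1 cannot be told from so few counts. Peak75921 and peak64033 were both among the 5 peaks with the widest gap between the lowest T1 and the highest later library.

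Other peaks with a large mean fall had later libraries that were split. Peak63567, the peak with the largest mean fall, had 84.6, 88.3 and 78.3 CPM at T1. It had 47.5, 4.03 and 49.2 CPM at T2, 1.98, 51.5 and 38.1 CPM at T3, and 48.2, 11.4 and 1.95 CPM at T4. Each later time point thus held at least 1 library with 38.1 CPM or more and 1 with 4.03 CPM or less, so the spread within a time point was larger than any difference between the later time points.

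Peak89175 was split in the same way, with the same low library at T2 (replicate 2) but other low libraries at T3 and T4. It had 16.0, 17.9 and 15.8 CPM at T1, 6.52, 0.99 and 7.81 CPM at T2, 8.80, 0.46 and 6.42 CPM at T3, and 0.69, 7.62 and 8.45 CPM at T4. At each later time point 1 library had 0.99 CPM or less and the other 2 had 6.42 CPM or more. Wide spans of the later values were less common in the set than among all peaks. The 9 later values spanned at least 2 log2 units in 30 of the 1219 peaks (2.46%), against 18.2% of all peaks, and the choice itself caps the upper end of this span. Only 1 chosen peak (0.082%), peak48935, had a step of at least 2 log2 units between neighbouring later values, against 663 of all peaks (0.70%). It had 1.11 CPM in T2 replicate 3 and 8.42 to 18.5 CPM in the other 8. Peak63567 and peak89175 had no step of that size, so this measure does not count splits like theirs.

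**Figure D2:**
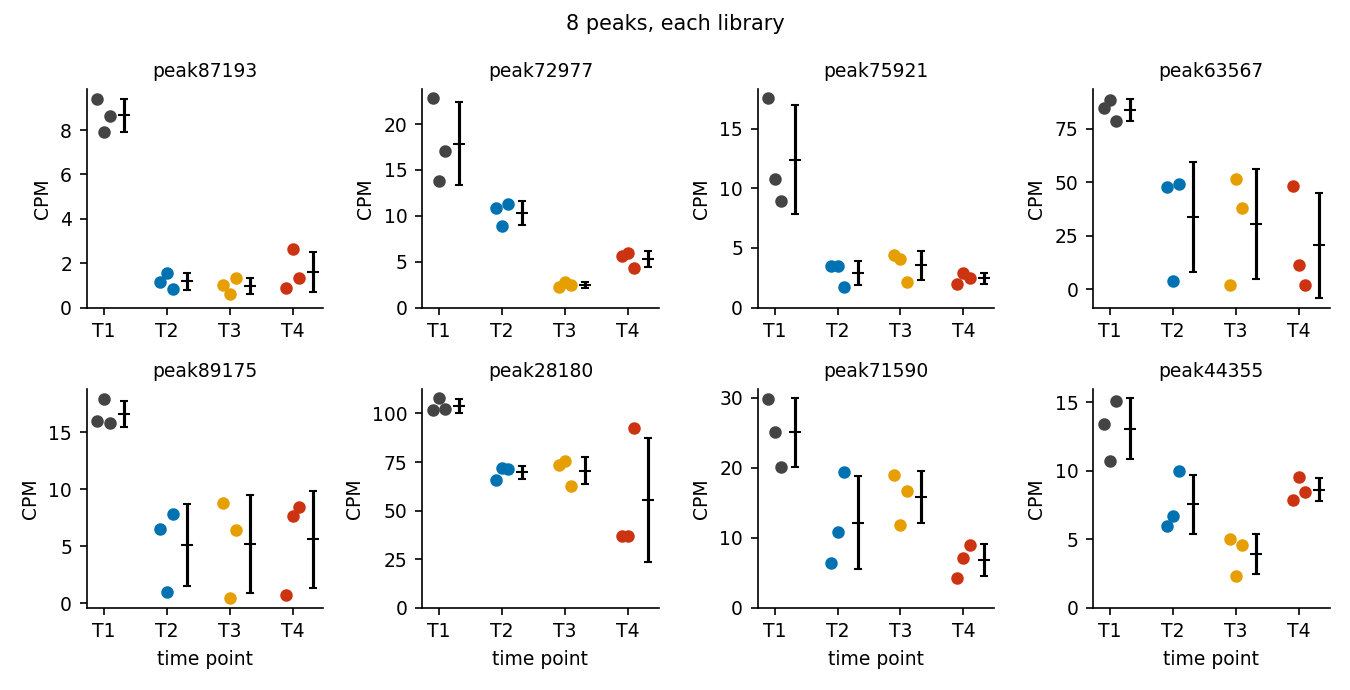
Accessibility of 8 chosen peaks in each library, in CPM on a linear axis, at T1 to T4; points are libraries and bars the mean ± SD of 3 libraries. Peak87193 and peak75921 were low in every later library, and peak72977 fell less at T2 than at T3 and T4. Peak63567 and peak89175 held at least 1 low and 1 higher library at each later time point. The T4 libraries of peak28180 had 37.1, 37.1 and 92.4 CPM.

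The most open of the chosen peaks kept a larger share of their T1 level. Peak30391, with the highest T1 mean, had 112, 146 and 138 CPM at T2, 133, 117 and 121 CPM at T3 and 78.7, 51.2 and 145 CPM at T4, against 169, 212 and 149 CPM at T1. In peak28180 the later libraries had 65.8, 72.1 and 71.2 CPM at T2, 73.5, 75.4 and 62.9 CPM at T3 and 37.1, 37.1 and 92.4 CPM at T4, against 102, 108 and 102 CPM at T1. In both peaks T4 replicates 1 and 2 lay far below T4 replicate 3, which was close to T1 in peak30391. Across the 70 chosen peaks at 50 CPM or more at T1, the later mean was a median of 63.3% of the T1 mean, against 46.2% in the 147 peaks between 2 and 5 CPM. The minimum fall, set on log2(CPM + 1), asks for a larger relative fall at low CPM, so this order is in part fixed by the choice. On the log2 scale the median fall of the 9 later libraries was 0.71 at 50 CPM or more, 0.79 between 2 and 5 CPM and 0.57 in the 12 peaks under 2 CPM.

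Few of the chosen peaks passed the test for differential accessibility (adjusted p under 0.05 and an absolute log2 fold change above 1) against T1. At T2, 25 of the 1219 were called lower, while 0.0531% of all 92360 peaks tested were (49 peaks). At T3, 2 were called lower, which were all the lower calls of that comparison (0.00214% of 93444 peaks) and were peak72977 and peak87193. At T4, 0 were called lower and 0% of 94355 peaks were, although 880 chosen peaks had an unadjusted p under 0.05 in edgeR (3520 of all peaks, 3.73%), and DESeq2 called 65 (107 of all peaks). In the fit of the mean of the 9 later libraries, 6 were called (0.00634% of 94675 peaks), peak87193, peak72977 and peak75921 among them. In all, 28 chosen peaks were called lower in at least 1 of these 4 fits, which share the T1 libraries with each other and with the choice, so nothing is read from these counts.

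The number of calls depended strongly on single libraries, among all peaks as among the chosen ones. Without T4 replicate 3, 6630 peaks were called lower at T4, 814 of them chosen, and for the later mean 746 were called, 432 of them chosen. Without T2 replicate 3, 718 were called at T2, 242 of them chosen. Without T1 replicate 1 or 3, by contrast, 1 chosen peak was called at T2 (4 and 5 of all peaks) and 0 for the later mean (0 of all peaks in edgeR; DESeq2 called 345 on all libraries). T4 replicate 3 was the library of its time point with the most counts in peaks and the highest share of reads in peaks.

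The choice set the same limits on T3 and T4 libraries and did not compare them with each other. It used the values of both, however, and the T4 libraries differed more among themselves (SD of the library medians 0.31, against 0.13 at T3). The fit of T4 against T3 is therefore given as a description beside the values of all peaks. Of the 1219 peaks, 1201 passed the filter on low values. None of these differed after adjustment in edgeR (0% of all 94313 peaks tested), and DESeq2 gave 0 as well (4 of all peaks). An unadjusted p under 0.05 was found for 25 chosen peaks lower at T4 (2.08%, against 1.15% of all peaks) and for 4 higher at T4 (0.333%, against 4.37%). The median log2 fold change of T4 over T3 was -0.30 in the chosen peaks and 0.01 over all peaks, and 80.3% of the chosen peaks had a value below 0, against 48.8% of all peaks.

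Over all peaks the direction depended on the level. The level here is the mean of log2(CPM + 1) over the 12 libraries, given in CPM, and not the T1 level of the classes above. Under 2 CPM and between 2 and 5 CPM, the median log2 fold change of T4 over T3 was -0.11 and -0.16 in the 72 and 262 chosen peaks, against 0.57 and 0.20 over all peaks, so the signs were opposite. In the classes from 5 CPM upwards it was -0.23, -0.36, -0.44 and -0.48 in the chosen peaks, against -0.06, -0.16, -0.22 and -0.22 over all peaks, so the signs were the same. With uniquely mapped reads as library sizes, the median was -0.53 in the chosen peaks and -0.31 over all peaks. All 3 T4 libraries lay below all 3 T3 libraries in 112 chosen peaks (9.19%; 4.62% of all peaks) and above them in 23 (1.89%; 2.81% of all peaks). Without the 4 libraries with the lowest share of reads in peaks, 1 T4 library remained against 2 of T3, a comparison chosen after the data were seen and without a test. T4 replicate 3 minus the mean of T3 replicates 1 and 2 had a median of 0.13 log2(CPM + 1) units in the chosen peaks and -0.02 over all peaks. The part of the share of reads in peaks in the difference between T4 and T3 was not tested.

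**Figure D3:**
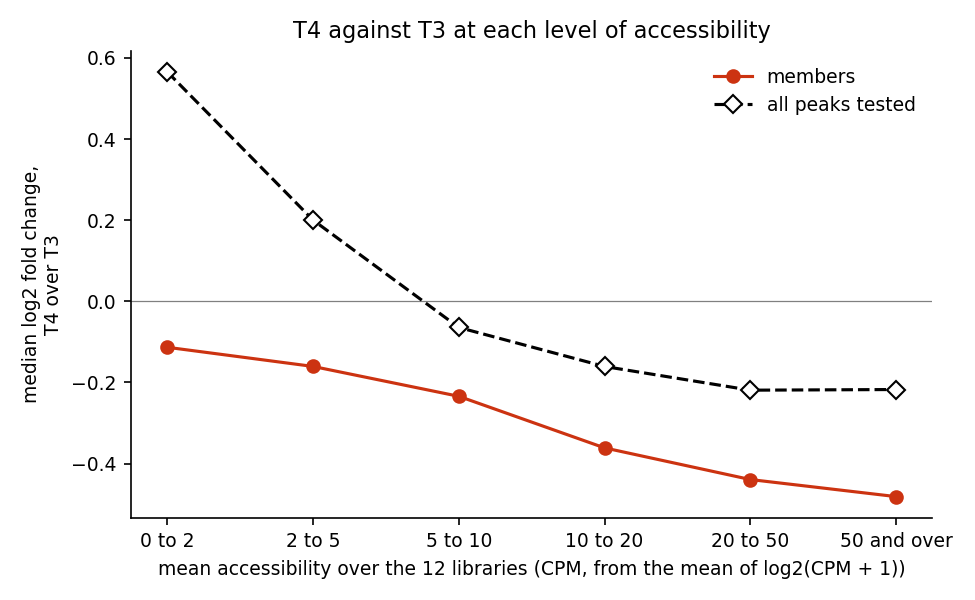
Median log2 fold change of T4 over T3 (edgeR, 3 libraries each) by the mean accessibility of the peak in CPM over the 12 libraries, for the chosen peaks less open after T1 (filled circles) and all peaks tested (open diamonds). The chosen peaks decline with level throughout, and all peaks decline up to the class of 20 to 50 CPM and then level off. The chosen peaks lie below all peaks in every class, at -0.48 against -0.22 in the highest. Under 5 CPM the 2 sets have opposite signs.

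The peaks with the lowest and highest T4 minus T3 differences were named for that difference, so their values are given without a test; none passed adjustment in edgeR. Peak71590 had 4.32, 7.14 and 8.93 CPM at T4, against 19.0, 11.8 and 16.7 CPM at T3, a log2 fold change of -1.27 ± 0.40 (SE). Peak44355 had 7.87, 9.52 and 8.41 CPM at T4, against 5.01, 2.29 and 4.55 CPM at T3, a log2 fold change of 1.03 ± 0.41 (SE). Peak86299 had 3.46, 3.10 and 0.92 CPM at T4, against 0.13, 0.53 and 0.67 CPM at T3, and its T2 libraries were likewise apart, with 0.66, 3.91 and 3.42 CPM.

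By the order of their means, 390 chosen peaks fell in the sequence T2 > T3 > T4 and 387 in the sequence T3 > T2 > T4, so T4 was the lowest time point in 777 of 1219. Among T2, T3 and T4 alone, with T1 left out of the order, T4 was the lowest in 31.7% of all peaks. It was the highest of these in 178 chosen peaks and in 47.4% of all peaks. A mean at least 1 log2 unit below T1 was reached by 249 chosen peaks in the T2 libraries, by 234 in those of T3 and by 471 in those of T4, against 1.05%, 0.704% and 1.69% of all peaks. T4 had the largest number in both, and its mean includes replicates 1 and 2, the lowest libraries of the chosen peaks. The choice asked for a minimum fall of T3 and T4 but not of T2, so the order of T2 beside them is a description.

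The choice was repeated with each of the 220 possible sets of 3 libraries in the place of T1, to see how often such an order arises among sets that the design does not define. Here all 9 other libraries had to be lower and their mean at least 0.5 lower, so that each set was treated alike, which gave 1189 peaks for T1. The other sets gave 11 to 8480 peaks, with a median of 123 and quartiles of 69.5 and 283. T1 ranked 7 of 220. With T2 in the place of T1 there were 224 peaks (rank 72), with T3 272 (rank 62) and with T4 347 (rank 44).

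The T1 count was thus higher than that of any other time point, but not the highest of all sets. Each of the 6 sets above T1 held at least 2 of the 4 libraries with the lowest share of reads in peaks, led by T3 replicate 3 with T4 replicates 1 and 2 (8480 peaks). The sets ranked 2 and 3 held T1 replicate 1 and so share a library with T1. Sets with 2 of the 4 libraries also ranked low, down to T1 replicate 1, T3 replicate 1 and T4 replicate 1 with 27 peaks (rank 215). Among the 56 sets with none of these 4 libraries, the highest count was 718 and the median 109. T1 itself holds 1 of the 4, and the highest count of any other set with exactly 1 of them was 792. Whether the share of reads in peaks accounts for the sets above T1 was not tested. After quantile normalization, which gives every library the same distribution of values, T1 had 1688 peaks and ranked 4, the highest other set had 3763, and T2, T3 and T4 had 335, 320 and 438.

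**Figure D4:**
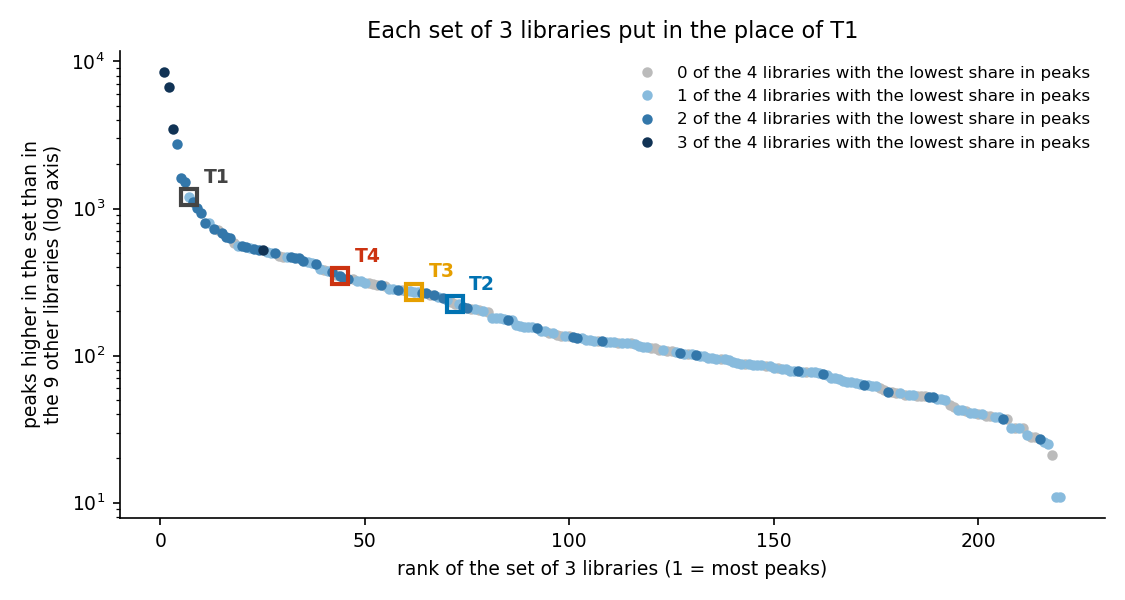
Number of peaks (log axis) that were higher in a set of 3 libraries than in all 9 others, with a mean difference of at least 0.5 log2 units, for all 220 sets in order of the count. Colours give how many of the 4 libraries with the lowest share of reads in peaks a set holds, and squares mark the time points. T1 (1189 peaks) ranks 7, behind 6 sets that each hold at least 2 of those libraries and ahead of T4 (347), T3 (272) and T2 (224).

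The peaks were also chosen from 11 libraries and then looked up in the library left out. The left-out values were not used, but those they were compared with had been, since the T1 values were selected as high and the later ones as low. The shares are therefore a description, and the share over all peaks is not the share that no change would give. Chosen without T2 replicate 1, 96.0% of 1270 peaks had that library below all T1 values, against 27.6% of all peaks. For the other later libraries the shares were 93.3% and 75.8% at T2, 73.0%, 96.1% and 78.4% at T3, and 96.5%, 76.1% and 77.6% at T4, against 20.8% to 32.9% of all peaks. The lowest of these shares, 73.0%, was that of T3 replicate 1, and the highest that of T4 replicate 1.

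For T1 the criterion was stricter, since 1 library had to exceed 9 values, whereas a later library had to lie below 3. A left-out T1 library was above all 9 later values in 69.1% of 1715 peaks (replicate 1), 43.1% of 2854 peaks (replicate 2) and 57.5% of 2087 peaks (replicate 3), against 10.0%, 5.91% and 8.05% of all peaks. The choice took most peaks, 2854, without T1 replicate 2. Among all peaks of 5 to 50 CPM, near the level of most chosen peaks, the shares were 8.23% to 10.8% for T1 libraries and 25.2% to 46.0% for later ones.

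**Figure D5:**
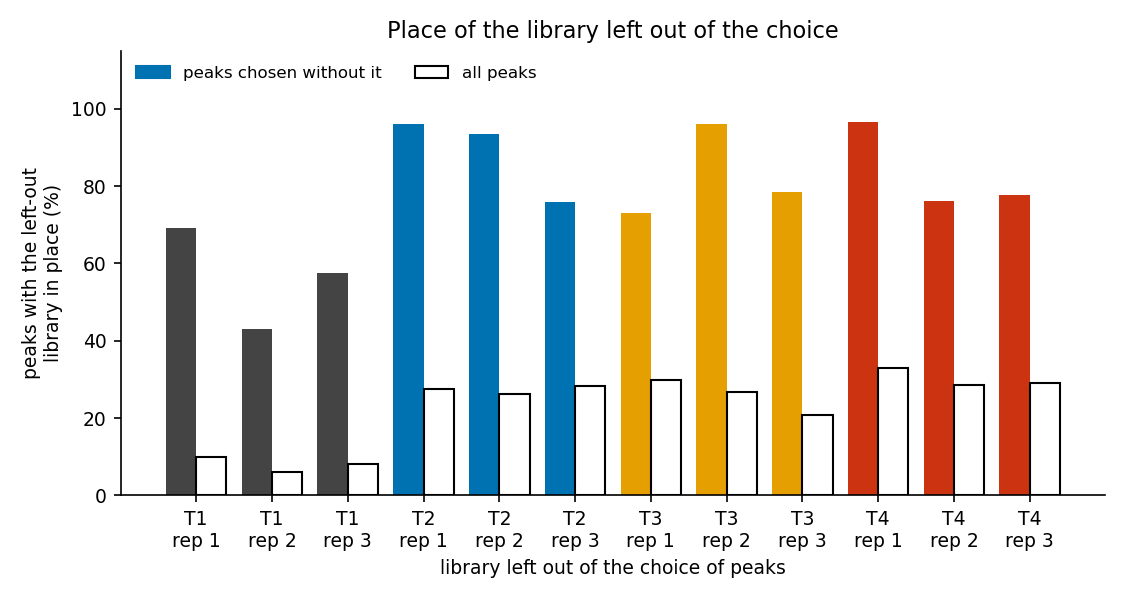
Percentage of peaks in which the library left out of the choice lay in the place the choice would give it (a T1 library above all 9 later values, a later library below all 3 T1 values), for peaks chosen from the other 11 libraries (filled bars) and for all 94780 peaks (open bars). Later libraries reach 73.0% to 96.5% and T1 libraries, held to the stricter criterion, 43.1% to 69.1%; the values compared with the left-out library had been used in the choice.

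In the order of the peak numbers the chosen peaks lay closer together than their share of all peaks. The next number was also a chosen peak for 59 of the 1219 (4.84%, against 1.29% of all peaks that were chosen). For 307 (25.2%) another chosen peak lay within 5 numbers. No share over all peaks was computed for this wider window, and 1.29% is not its baseline. There were 55 runs of 2 and 2 runs of 3 consecutive numbers. The first run of 3 was peak63498, peak63499 and peak63500. In peak63498 the later libraries had 0.99 to 6.01 CPM with a median of 1.56 CPM, against 8.39, 7.12 and 10.1 CPM at T1. In peak63499 they had 1.06 to 4.05 CPM with a median of 1.83 CPM, against 5.85, 5.43 and 7.92 CPM at T1. In peak63500 they had 1.23 to 6.55 CPM with a median of 2.77 CPM, against 8.14, 8.15 and 10.6 CPM at T1. All 3 peaks were thus low in the same libraries of T2, replicates 1 and 2, with replicate 3 the highest of that time point.

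The 2275 peaks with a number next to a chosen peak, which the choice itself left out, also leaned lower after T1. Their later mean minus the T1 mean had a median of -0.11 log2 units and was below 0 in 61.4%, against 0.06 and 41.8% in all peaks that were not chosen. Over all peaks, the correlation of this difference between consecutive numbers was 0.26 (94779 pairs that share the 12 libraries), and it was 0.02 at 10 numbers apart. Consecutive numbers were also alike in T4 minus T3 (r = 0.32) and in mean level (r = 0.18). Likeness of neighbours was thus not particular to the fall after T1, and the neighbours were not matched for level. The numbers were not matched to positions in the genome here, so closeness in number is not read as a distance.

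The size of the set depends on what the counts are scaled to. With the number of uniquely mapped reads in place of the counts in peaks as library size, 150 peaks met the same choice, and 54 of them were among the 1219. That scaling multiplies each CPM by the share of reads in peaks. This share was 16.7% to 48.4% in the T1 libraries and 7.05% to 44.5% in the later ones. Its part in the smaller number was not tested. Without the 4 libraries with the lowest share, an alternative added after the data were seen, 2369 peaks met the choice and 864 of the 1219 were among them.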

How the data were processed

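The 12 liver ATAC-seq libraries were grouped by the time point in the sample labels, with 3 at each of T1, T2, T3 and T4. The authors mapped reads with Bowtie2 2.3.5.1 to the ICSASG_v2 assembly and discarded duplicates, reads with several matches and reads from mitochondria. After MACS2 peak calling they deposited raw counts per consensus peak made with HTSeq 0.11.1. Whether positions were shifted for Tn5 is not given in the sources used here. The deposited log2 values are log2(CPM + 1) made by the authors from these counts, without further scaling; they differed from values recomputed from the counts by at most 4.62e-14. Numbers of uniquely mapped reads per library were read from the study's supplementary data.

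Peaks were chosen on the deposited log2 values. Counts were fitted with edgeR 4.0.16 (TMM, peaks with CPM above 1 in 2 or more of the fitted libraries, quasi-likelihood test, Benjamini-Hochberg adjustment over all peaks tested), on the 6 libraries of each comparison and on all 12 for the mean of T2, T3 and T4 against T1. The SE of a log2 fold change was its size over the square root of the F statistic. The P-values weigh the difference between time points against the spread between the replicates of a time point. The fits and the choice were also run on simulated data, from which no error rate for these libraries is drawn. Alternatives were DESeq2 1.42.0 and its size factors, TMM-scaled or unscaled library sizes, uniquely mapped reads as library sizes, quantile normalization, thinning to the smallest library, pseudocounts of 0.5 and 5, a minimum fall of 1 or none, at least 10 counts, no filter, a replicate block, 1 fit of all 12 libraries and leaving out each library. R 4.3.3, Python 3.11.15, pandas 2.3.3, numpy 2.4.6 and matplotlib 3.10.9 were used.

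The peaks and lists were chosen with earlier results of these data known. Peaks named singly were the 5 with the largest fall, the 5 with the highest T1 mean, the 5 with the widest gap, the 3 on each side of the threshold, those called at T3 or T4, the first longest run of numbers, and the 3 lowest and 3 highest T4 minus T3 differences with an unadjusted P under 0.05; the text gives values for some of these. Peak48935 was named after its values were seen. The peak numbers were not matched to genes or positions.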

Additional observations from a re-analysis of the deposited data

How the results depend on the processing

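The number of chosen peaks, 1219, was 150 with uniquely mapped reads as library sizes, 780 with a pseudocount of 5, 260 with a minimum fall of 1 and 2369 without the 4 libraries with the lowest share of reads in peaks (chosen after seeing the data). It stayed within 1.5 times under the other scalings, filters and pseudocounts, but with turnover: of the 1219, 984 were among the 1437 with TMM, 909 among the 1345 with DESeq2 size factors, 1023 among the 1756 with quantile normalization and 663 among the 1122 after thinning. It ranged from 1162 to 2854 when a library was left out. The cause was not tested.

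Chosen peaks called lower at T2 (25 in edgeR) numbered 258 in DESeq2 (of 804 lower calls over all peaks), 15 with mapped reads as library sizes (of 102), 38 without a filter (of 69), 0 in 1 fit of all 12 libraries (of 0) and 1 to 242 with a library left out (of 4 to 718). At T3 (2) there were 170 (of 343), 8 (of 39), 2 (of 2), 1 (of 1) and 1 to 4 (of 2 to 9) under the same settings. At T4 (0) DESeq2 called 65 (of 107), mapped reads gave 3 (of 19), and leaving out a library gave 0 to 814 (of 0 to 6630). For the mean of the later time points (6) DESeq2 called 233 (of 345), mapped reads gave 47 (of 171), library sizes without TMM gave 3 (of 3), and leaving out a library gave 0 to 432 (of 0 to 746). In T4 against T3, chosen peaks lower at an unadjusted p under 0.05 (25 in edgeR) numbered 6 with mapped reads, 82 in 1 fit of all 12 libraries and 2 to 371 with a library left out, and 0 passed adjustment in any setting. The median of -0.30 was -0.53 with mapped reads (-0.31 over all peaks), ranged from -0.65 to -0.14 with a library left out and reversed to 0.13 in T4 replicate 3 against T3 replicates 1 and 2, a comparison chosen after seeing the data.

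Deviations of same-numbered libraries correlated at r from -0.47 to 0.28, among libraries that differ in depth and compression. These values cannot decide whether the numbers mark a shared batch. Fish were killed at each sampling, so the numbers do not pair samples by animal. With a replicate block, the calls among chosen peaks numbered 68 for T2 (of 135), 2 for T3 (of 2), 38 for T4 (of 78) and 2 for the later mean (of 2), and the T4 against T3 median was -0.37.

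For the 26 named members, 384 of 442 values of the later mean against T1 kept their side of the threshold. A further 16 lost it, 42 gained it and 0 changed direction. The choice had put all 9 later libraries below all 3 T1 libraries in these peaks. Their direction was thus largely fixed by the choice, and the absence of reversals is only a description. For peak87193, with -2.90, the log2 fold change was at most -2.79 with a library left out. Without T1 replicate 1, 2 or 3 its adjusted p in edgeR was 0.102, 0.0684 and 0.0801. Its call for the later mean was thus lost without any single T1 library. The depth of T4 replicate 2 limits single values, since the median chosen peak had 28 counts there.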
